A study of Rattus norvegicus with 6 samples.

Results

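Gap junction and adherens junction genes were examined in cultured rat ovaries through 9 genes that encode 5 connexins (Gja1, Gja4, Gja5, Gjb2 and Gjc1), 2 cadherins (Cdh2 and Cdh11) and 2 catenins (Ctnnb1 and Ctnna1). Members were all probe sets of the array whose only gene symbol in the annotation was 1 of these 9, whatever their signal, which gave 19 of 31042 probe sets. Whole ovaries of 4-day-old female Sprague-Dawley rats were cultured for 48 h with 50 ng/ml of recombinant human NT3 (3 arrays) or with no added factor (3 arrays), each array carrying RNA of 2 to 3 ovaries. NT3 is a neurotrophin whose main receptor is the kinase TrkC, the product of Ntrk3. No label says which animals or litters the replicates came from, so every p-value rests on the spread among 6 samples that may not be fully independent. RNA of a whole ovary cannot tell fewer cells of a type from less RNA per cell.

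Connexins assemble into channels that join the cytoplasm of neighbouring cells and pass ions, nucleotides and metabolites. In the follicle of the mouse, Gja4 (connexin-37) is known from the junctions between oocyte and granulosa cells and Gja1 (Cx43) from those among granulosa cells, and loss of either gene disturbs follicle growth. Cadherins hold cells together through calcium-dependent contacts, and their inner ends bind beta-catenin and, through it, alpha-catenin and the actin cytoskeleton. Beta-catenin released from this complex can also enter the nucleus as a partner of TCF/LEF transcription factors in Wnt signalling.

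Each of the 9 junction genes had at least 1 probe set above the signal filter, and on these probe sets no difference between NT3-treated and control ovaries passed the test. Values are MAS5 signals, a linear measure of probe set brightness scaled to the same trimmed mean of 210.1 on each array, and a signal depends on the probe set as well as on the transcript. Signals of different probe sets are therefore not read as relative transcript amounts. They are ordered by brightness only to choose which is described, and summed over a marker list only to set array beside array, where bright probe sets weigh most. Of the 19 probe sets, 13 passed the filter on low signals, a mean log2 signal above 5.37 or a signal of 41.3, and 6 did not. Within a gene the brightest probe set by mean signal is given first. By limma across 18625 tested probe sets, 0 of the 13 had an adjusted p under 0.05, where 0% of all tested probe sets did. At an unadjusted p under 0.05 there were also 0 of 13, against 1.29% of all, and 0 of 13 had groups that did not overlap, against 5.83% of all. The lowest unadjusted limma p among the 13 was 0.151. On the first probe set of each gene, log2 fold changes of NT3 minus control ran from -0.11 to 0.20, with 7 of 9 genes higher and a median of 0.055, beside a median of -5e-04 over all tested probe sets. Over all 19 probe sets the median was 0.019, against -0.012 over all 31042. The 95% intervals of these 9 genes all held 0, and together they reached from 0.610-fold to 1.51-fold. For 7 of the 9 genes the spread within groups was larger than the difference between them.

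By a measure of RNA quality, 1 array stood apart from the others. Control replicate 2 had a 3′ to 5′ signal ratio of 6.83 for beta-actin, against 2.42 to 2.91 on the other 5 arrays, and of 1.70 for Gapdh, against 1.09 to 1.25. On this array 5 of the 9 genes had their highest or lowest signal. The share of all tested probe sets that did so was not counted, so no excess is read from it. The part of RNA quality in these results was not tested, and values without this array are given beside several members. The oocyte genes Zp2, Zp3 and Gdf9 and the granulosa genes Amhr2, Inha and Foxl2 all passed the signal filter. In all, 35 of the 36 annotated genes of the 8 marker lists passed it, so passing does not tell cell types apart. Over 8 marker lists of 4 to 5 annotated genes, limma called 0 genes, and the medians of the tested markers were -0.084 for oocyte, -0.011 for granulosa, 0.14 for stroma, -0.11 for endothelium, 0.047 for smooth muscle, -0.061 for surface epithelium, 0.33 for oviduct epithelium and 0.24 for leukocyte. Single arrays moved most of these medians. With 1 array left out they ran from -0.33 to 0.022 for oocyte, -0.19 to 0.087 for granulosa, 0.11 to 0.21 for stroma, -0.24 to -0.038 for endothelium, -0.12 to 0.27 for smooth muscle, -0.24 to 0.16 for surface epithelium, 0.18 to 0.45 for oviduct epithelium and 0.16 to 0.30 for leukocyte. The ends -0.33 for oocyte and 0.16 for surface epithelium were without control replicate 2, and smooth muscle was at 0.24 without it. The 1 marker with an unadjusted limma p under 0.05 was the tight junction gene Cldn3, at 126 ± 34.3 in NT3 and 64.7 ± 3.10 in control, with a log2 fold change of 0.92 and groups that did not overlap. Of the 35 tested markers, 4 had all NT3 arrays above all controls, where 2.62% of all tested probe sets did. They were Cldn3, Lum of the stroma list, and Ctss and Ptprc of the leukocyte list. The lists were chosen with earlier results of these data known, so no excess is read from this count. The smooth muscle gene Myh11 was the 1 tested marker with all NT3 arrays below all controls, where 3.21% of all tested probe sets were. It had 45.4 to 62.2 in NT3 and 69.5 to 77.3 in control, with a log2 fold change of -0.46 and an unadjusted limma p of 0.0535. Its other probe set went the other way. Of the other tested genes of this list, Tagln (0.35) and Acta2 (0.20) were higher and Des (-0.11) was lower. Cnn1 of the same list, below the filter, had 32.2 to 32.5 in NT3 and 41.0 to 52.1 in control. NT3 lay wholly below control in 5.9% of the probe sets below the filter.

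**Figure D1:**
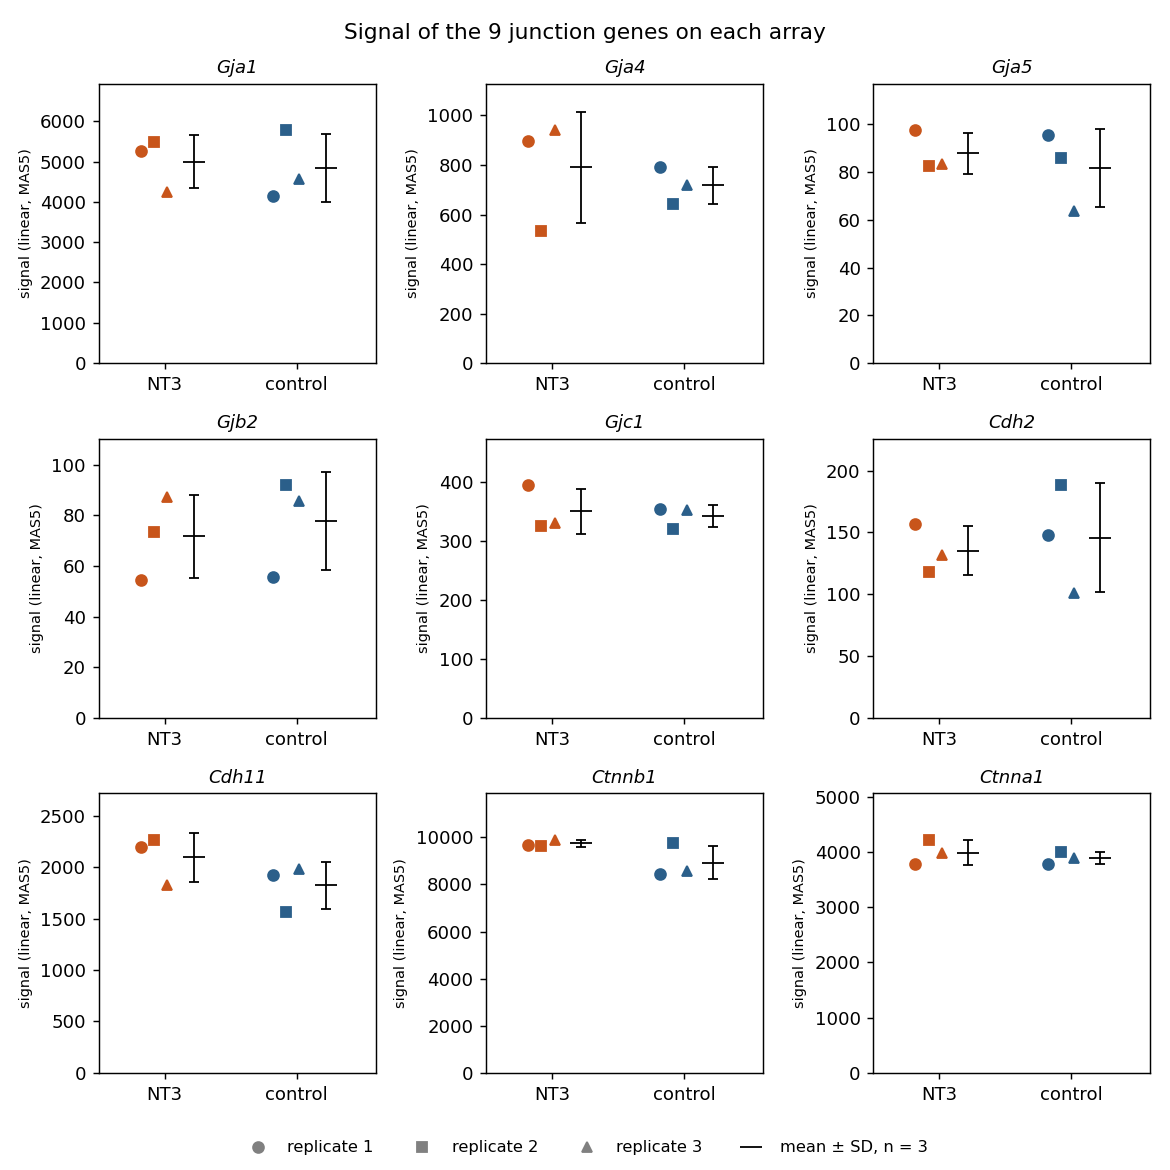
MAS5 signal (linear, from 0) of the brightest probe set of each of the 9 genes, NT3 on the left and control on the right. Points are arrays, shaped by replicate number, and the bar is the mean with SD (n = 3). The groups overlap in every panel.

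The connexin gene Gja1, whose Cx43 protein joins granulosa cells in the mouse, had signals far above the filter in all ovaries. Its signals were 5250, 5490 and 4256 in NT3 replicates 1 to 3, against 4144, 5777 and 4573 in control replicates 1 to 3. Replicate 2 was the highest array in both groups and the groups overlapped. The means were 4999 ± 654 in NT3 and 4831 ± 847 in control (SD, n = 3). The log2 fold change was 0.055 ± 0.15 (SE; limma adjusted p = 1), with a 95% interval from 0.825-fold to 1.31-fold. It was 0.19 without control replicate 2 and -0.049 at the lower end with other single arrays left out, so its direction rested on single arrays. A further Gja1 probe set, 1369640_at, lay just above the signal filter, at 44.1 ± 7.82 in NT3 and 45.2 ± 16.2 in control. It was lowest in control replicate 2, at 27.5, where the first probe set was highest. The last Gja1 probe set, 1369639_at, was below the filter, with 14.2 ± 2.23 in NT3 and 20.4 ± 5.50 in control. As a description over 6 arrays, the first probe set had a negative Pearson r with all 5 oocyte markers, from -0.86 for Gdf9 to -0.26 for Zp2. With the granulosa markers r was -0.80 for Inha, -0.71 for Amh, -0.17 for Foxl2 and 0.45 for Amhr2. It was positive with all 4 surface epithelium markers, from 0.73 for Krt19 to 0.92 for Krt8, and reached 0.96 with the smooth muscle gene Tagln, though Myh11 of the same list had -0.43. In the stroma list it ran from -0.60 for Dcn to 0.86 for Col1a1 and Col1a2. Without control replicate 2 it was -0.11 for Dcn and from 0.64 for Pdgfra to 0.81 for Col1a2 in the rest of that list. Lum turned from -0.41 to 0.78. Of the granulosa markers, Amhr2 then had 0.10 and Foxl2 0.060, while Inha (-0.74) and Amh (-0.90) stayed negative. The part of the cell makeup of each sample in the Gja1 values was not tested.

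Gja4, the oocyte connexin of the mouse that arterial endothelium also uses, varied more among NT3 arrays than between the groups. Its signals were 899, 533 and 941 in NT3 replicates 1 to 3, against 791, 644 and 717 in control replicates 1 to 3. NT3 replicates 1 and 3 lay above all controls and NT3 replicate 2 below all of them. The log2 fold change was 0.10 ± 0.21 (limma adjusted p = 1; interval 0.776-fold to 1.48-fold). Without NT3 replicate 2 it was 0.36 with an unadjusted limma p of 0.0263, where 0.956% of all tested probe sets had one under 0.05 and 0 passed adjustment. Without NT3 replicate 1 or 3 it was -0.014 and -0.047.

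All 5 oocyte markers and 3 of the 4 granulosa markers had a positive correlation with Gja4 across the arrays, and the granulosa receptor gene Amhr2 went the other way. The median of the 5 oocyte markers (Gdf9, Bmp15, Zp1, Zp2 and Zp3), taken as log2 deviation from the mean of the 6 arrays, lay at -0.33 in NT3 replicate 2, while the other 5 arrays ranged from 0.017 to 0.26. The median of 4 granulosa markers was -0.37 in NT3 replicate 2, -0.092 in control replicate 2 and between 0.063 and 0.25 on the other 4. Gja4 itself deviated by -0.47 and -0.20 on those arrays and by -0.046 to 0.35 on the others. As a description over 6 arrays, Gja4 had a Pearson r of 0.95 with Inha, which encodes the inhibin alpha subunit of granulosa cells, 0.67 with Foxl2 and with Amh, and -0.61 with Amhr2. With the oocyte markers it ran from 0.54 for Zp1 to 0.84 for Gdf9, and with the surface epithelium markers from -0.85 for Krt19 to -0.76 for Krt8 and Msln. Amhr2 had 1013, 1386 and 1315 in NT3 replicates 1 to 3, against 1078, 1547 and 1257 in control replicates 1 to 3. The 4 surface epithelium markers, Krt8, Krt18, Krt19 and Msln, ran the other way, with medians of 0.37 in NT3 replicate 2 and 0.39 in control replicate 2 and from -0.31 to -0.082 elsewhere. The 4 oviduct epithelium markers had the farthest median on NT3 replicate 2, at 0.48, but -0.30 on control replicate 2 and -0.26 to 0.075 on the others. Among them Gja4 had an r of -0.85 with Epcam, an adhesion gene of many epithelia, and of -0.32 to -0.083 with Wfdc2, Pax8 and Cldn3. Leukocyte markers had a median of 0.23 on NT3 replicate 2. Endothelial markers also had their lowest median in NT3 replicate 2, at -0.19, against -0.034 to 0.19 on the others. Their summed signals were 1290 to 1683 in NT3 and 1395 to 1722 in control. With Gja4 they had an r of 0.71 for Pecam1, 0.59 for Tie1, -0.22 for Kdr and -0.37 for Tek. The summed oocyte signals were 9023 to 11713 in NT3 and 10709 to 11612 in control, and no oocyte marker was at 0. The part of the cell makeup of each sample in the Gja4 values was not tested.

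**Figure D2:**
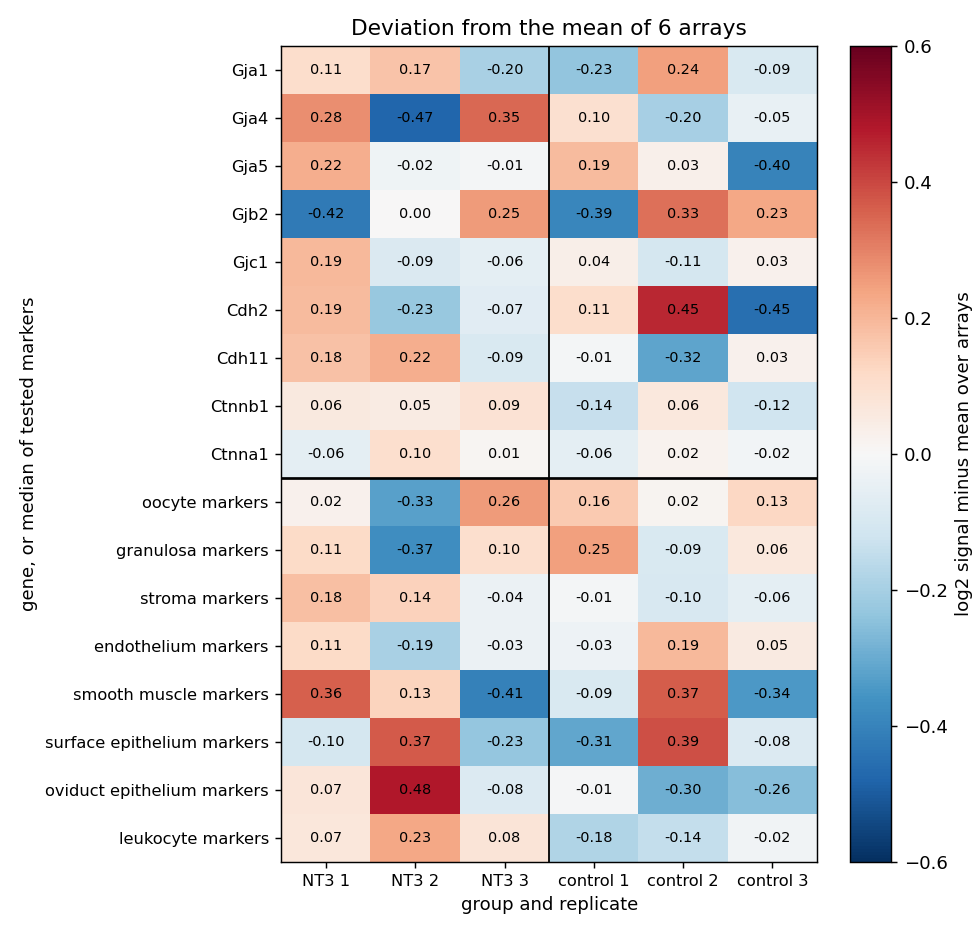
Log2 signal minus its mean over the 6 arrays for the 9 genes (upper rows) and the median of the tested markers of 8 cell types (lower rows), with NT3 arrays left of control arrays. In NT3 replicate 2, Gja4 (-0.47) and the oocyte (-0.33), granulosa (-0.37) and endothelium markers (-0.19) are all low. Oviduct epithelium (0.48), surface epithelium (0.37) and leukocyte markers (0.23) are high there.

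The other 3 connexin genes had no difference that passed the test. Gja5, which encodes Cx40 of arterial endothelium and atrial heart muscle, had 97.5, 82.5 and 83.3 in NT3 replicates 1 to 3, against 95.6, 85.7 and 63.5 in control replicates 1 to 3. Control replicate 3 was the lowest array, and the log2 fold change was 0.12 ± 0.21. The other probe set of Gja5 was below the filter, with signals from 2.2 to 14.3 in NT3 and 9.0 to 16.2 in control. Gjb2, which encodes Cx26 of many epithelia, had 54.6, 73.4 and 87.3 in NT3 against 55.8, 92.0 and 85.9 in control. The arrays numbered 1 were the lowest in both groups, and the log2 fold change was -0.11 ± 0.27, which became 0.025 without control replicate 2. Gjc1, which encodes Cx45 of vascular smooth muscle and cardiac nodal cells, had 395, 325 and 332 in NT3 against 355, 321 and 352 in control. It was the tightest of the 5 connexin genes, at 0.029 ± 0.13, with an interval from 0.837-fold to 1.24-fold. All 3 had an adjusted limma p of 1.

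Cdh2 encodes N-cadherin, which oocytes and granulosa cells are known to carry, and its 3 probe sets did not run together. The first, 1368642_at, had 157, 118 and 131 in NT3 replicates 1 to 3, against 148, 188 and 101 in control replicates 1 to 3. The highest and the lowest array were both controls, and the log2 fold change was -0.070 ± 0.24. The next, 1387259_at, had 101, 96.6 and 66.2 in NT3 against 83.5, 62.6 and 71.1 in control, at 0.27 ± 0.23. NT3 replicates 1 and 2 were above all controls and NT3 replicate 3 within their range. Both had an adjusted limma p of 1. Without control replicate 2 the first turned to 0.14 and the next was 0.17.

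The Cdh2 probe set 1378271_at was the 1 of 19 whose groups did not overlap. It had 7.2, 5.3 and 11.4 in NT3 replicates 1 to 3, against 31.5, 28.9 and 31.1 in control replicates 1 to 3. All NT3 arrays were below all control arrays, with means of 7.97 ± 3.12 in NT3 and 30.5 ± 1.40 in control (SD, n = 3). Every one of these signals was below the filter, so the probe set was not tested with the others. Its log2 fold change was -2.01, and -2.30 to -1.75 with single arrays left out, but -0.96 on the log2(signal + 16) scale, since small signals differ much on a log scale. In the fit without a filter it had an unadjusted limma p of 0.00201, the rank of 15 among 31042 probe sets, and an adjusted p of 1. Without the filter, 1.52% of all probe sets were lower at an unadjusted p under 0.05 and 0% passed adjustment. Among the 12417 probe sets below the filter, 5.9% had all NT3 arrays below all control arrays, and 1.83% had a log2 fold change as low as this one. Over all 31042 probe sets, 4.28% (1329) had NT3 wholly below control and 893 had it wholly above. Counted in either direction, 1 of 19 was thus no more than this background. In the other 2 probe sets of Cdh2 the groups overlapped.

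Cdh11, the cadherin gene of mesenchymal cells, had the largest log2 fold change among the first probe sets of the 9 genes. Its signals were 2198, 2266 and 1826 in NT3 replicates 1 to 3, against 1928, 1562 and 1984 in control replicates 1 to 3. NT3 replicates 1 and 2 were above all controls, NT3 replicate 3 was below 2 of them, and control replicate 2 was the lowest array. The log2 fold change was 0.20 ± 0.13 (limma adjusted p = 1), or 0.940-fold to 1.41-fold by its interval. Without control replicate 2 it was 0.094. The 5 stroma markers, Pdgfra, Col1a1, Col1a2, Dcn and Lum, also had log2 fold changes above 0, with a median of 0.14 and 0 of 5 called. Their summed signals, where bright probe sets weigh most, were 18196 to 20274 in NT3 and 17287 to 17516 in control. Their median log2 deviation per array overlapped between the groups, at 0.18, 0.14 and -0.036 in NT3 replicates 1 to 3. In control replicates 1 to 3 it was -0.014, -0.096 and -0.0605. Among the 5 markers only Lum had groups that did not overlap. Lum (1766), Dcn (4521) and Pdgfra (1184) had their lowest signal in control replicate 2, as Cdh11 did. There Col1a1 (5301) had its highest, and Col1a2 (4744) lay just under its highest, 4748 in NT3 replicate 1. As a description over 6 arrays, Cdh11 had a Pearson r of 0.88 with Lum, 0.76 with Dcn and 0.74 with Pdgfra. It was 0.038 with Col1a2 and -0.21 with Col1a1. Without control replicate 2 these were 0.70, -0.31, 0.66, 0.82 and 0.71. Lum had 2835 to 3180 in NT3 and 1766 to 2813 in control, so its groups did not overlap, with an unadjusted limma p of 0.0876. The part of stromal content in the Cdh11 values was not tested. The other 2 probe sets of Cdh11 were below the filter, at 41.1 ± 6.25 and 19.7 ± 5.05 in NT3, against 39.8 ± 4.05 and 28.3 ± 7.85 in control.

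**Figure D3:**
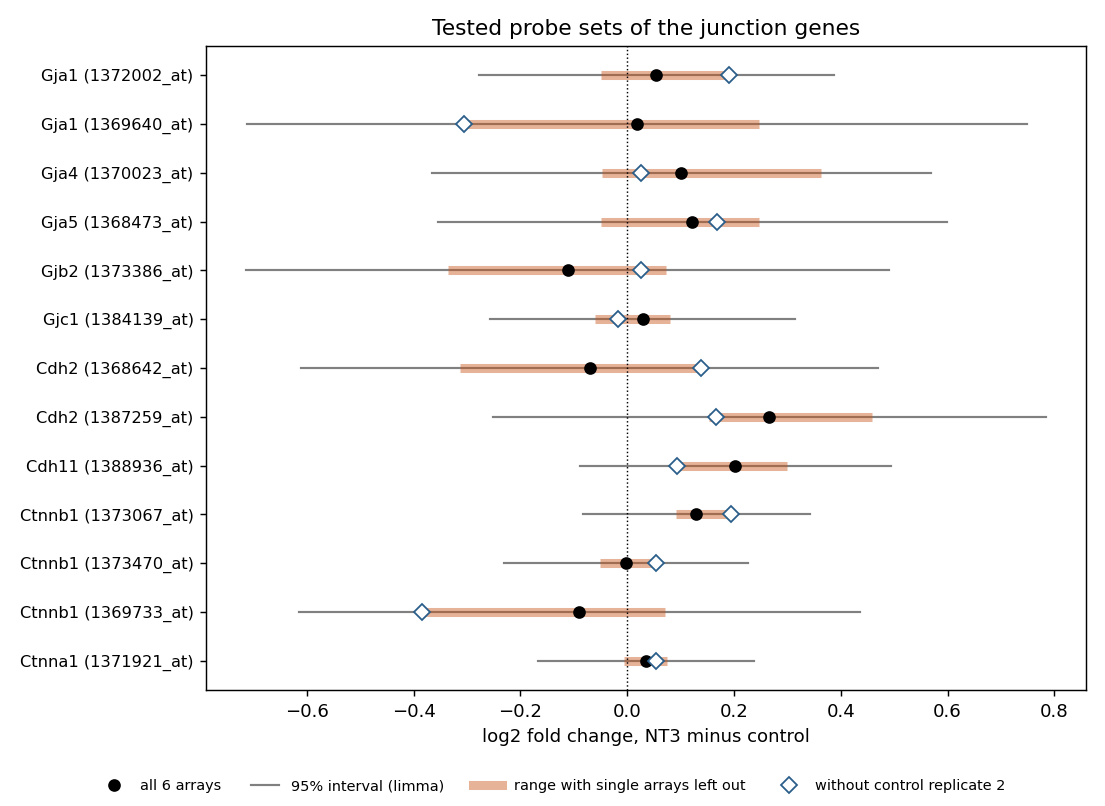
Log2 fold change (NT3 minus control) of the 13 tested probe sets with all 6 arrays (black), its 95% interval (grey line), its range with single arrays left out (orange band) and its value without control replicate 2 (diamond). All 13 intervals hold 0, and for 6 of the 13 the diamond lies at an end of its band: both tested Gja1 probe sets (0.19 and -0.30), the first of Cdh2 (0.14), that of Cdh11 (0.094), and the first (0.19) and last tested (-0.38) of Ctnnb1. The share of all tested probe sets with such an end was not counted.

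Ctnnb1, the gene of beta-catenin, had 4 probe sets. The first, 1373067_at, had 9683, 9648 and 9887 in NT3 replicates 1 to 3, against 8455, 9740 and 8571 in control replicates 1 to 3. The NT3 arrays were close together, and control replicate 2 lay among them while the other controls were lower. The log2 fold change was 0.13 ± 0.094 (limma adjusted p = 1). The next, 1373470_at, had 5590 ± 439 in NT3 and 5595 ± 383 in control, with -0.0019 ± 0.10. The third, 1369733_at, had 298, 273 and 253 in NT3 against 364, 194 and 351 in control. Control replicate 2 was the lowest array, all NT3 arrays were below the other 2 controls, and the log2 fold change was -0.090 ± 0.23. The fourth, 1375284_at, had signals from 0.6 to 10.6 in NT3 and from 1.6 to 20.8 in control, below the filter.

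When control replicate 2 was left out, an unadjusted limma p under 0.05 was reached by 2 of the 13 (3.52% of all tested probe sets), both of Ctnnb1. They pointed in opposite directions, at 0.19 with an unadjusted limma p of 0.0367 for 1373067_at and at -0.38 with an unadjusted limma p of 0.0100 for 1369733_at, and 0 passed adjustment. Ctnna1, the gene of alpha-catenin, was the most even of the 9. Its signals were 3773, 4215 and 3973 in NT3 replicates 1 to 3, against 3784, 3993 and 3889 in control replicates 1 to 3. The lowest and the highest array were both NT3, and the log2 fold change of 0.035 ± 0.089 had an interval from 0.891-fold to 1.18-fold, which became -0.018 under quantile normalization.

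**Figure D4:**
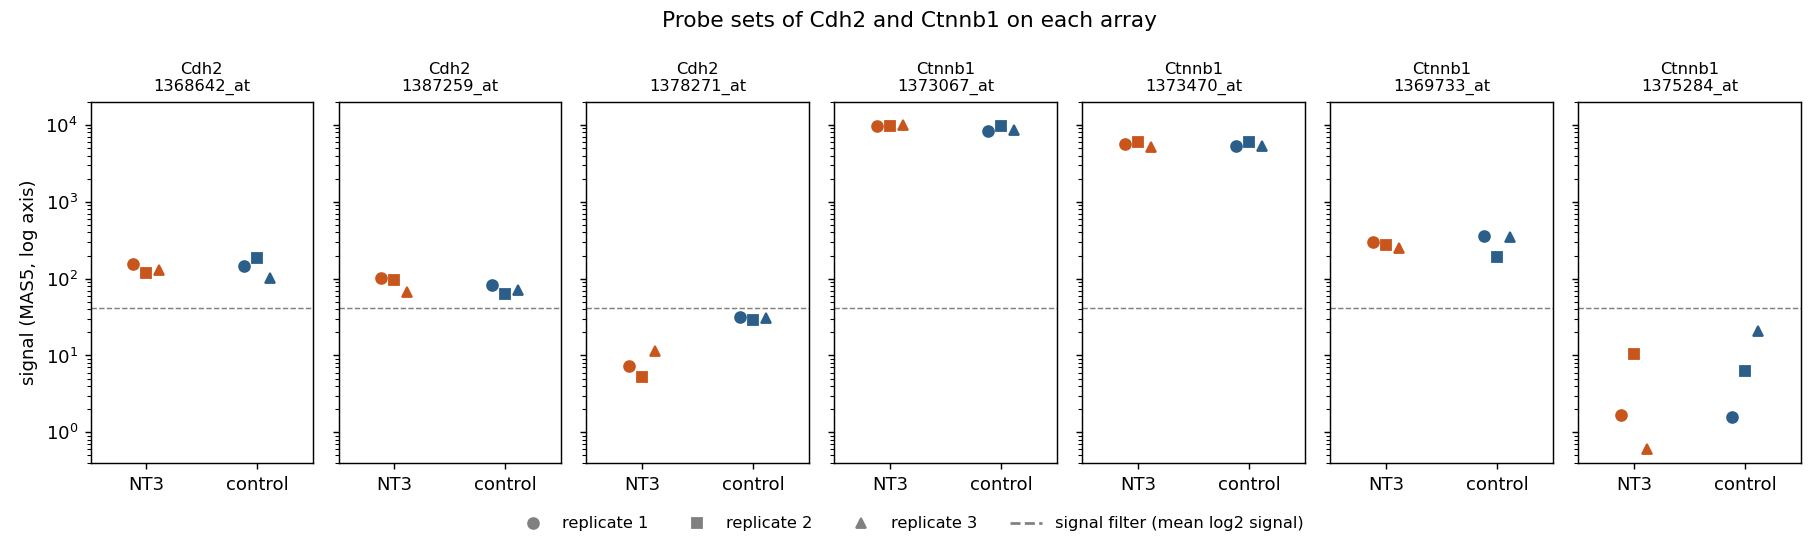
MAS5 signal on a log axis for the 3 probe sets of Cdh2 and the 4 of Ctnnb1, NT3 left of control in each panel, with points shaped by replicate number and the dashed line at the signal filter of 41.3. Only Cdh2 1378271_at separates the groups, at 5.3 to 11.4 in NT3 and 28.9 to 31.5 in control, all under the line.

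Genes that share these pathways were taken from 5 lists with 93 gene names, 69 of them named in the annotation and 50 tested. By limma 0 of the 50 had an adjusted p under 0.05, and 1 had an unadjusted p under 0.05, beside the 1.29% of all tested probe sets. That gene was Panx1, whose pannexin protein forms single-membrane channels for ATP. It had 33.4, 47.7 and 35.5 in NT3 replicates 1 to 3, against 64.0, 58.5 and 55.2 in control replicates 1 to 3. All NT3 arrays were below all controls, with a log2 fold change of -0.62 ± 0.23 (limma adjusted p = 1). All NT3 arrays lay below all controls in 3.21% of tested probe sets. Counting either direction, 3 of the 50 tested genes, Panx1 among them, had groups that did not overlap, against 5.83% of all tested probe sets. The unadjusted limma p was 0.0263, and with single arrays left out the log2 fold change lay between -0.78 and -0.52. That p was above 0.05 in 3 of these 6 fits, at 0.0844 without control replicate 1, 0.0883 without NT3 replicate 1 and 0.0712 without NT3 replicate 3. The mean NT3 signal of 38.9 was under the filter of 41.3 and the control mean of 59.2 above it. Of the other 2 probe sets of Panx1, 1 went the other way. The remaining 7 annotated connexin and pannexin genes were below the filter, among them Gja6 at 20.8 ± 3.09 in NT3 and 18.7 ± 2.26 in control.

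Among other cadherins 3 of 6 tested genes were higher, with a median of 0.0070. Cdh1, which encodes the epithelial E-cadherin, had 403 ± 34.5 in NT3 and 407 ± 71.5 in control, and Cdh22 had a log2 fold change of -0.21 ± 0.24. Leaving out control replicate 1 gave -0.45 for Cdh22, and leaving out control replicate 2 gave -0.031. Of 16 adherens junction partners 7 were higher and 9 lower, with a median of -0.038. Vcl, which encodes the actin-binding protein vinculin, had 1751 ± 119 in NT3 and 1418 ± 408 in control, at 0.35 ± 0.20 over the 6 arrays. Control replicate 2 had 979, and without it the value was 0.10, while without control replicate 1 it was 0.53 with an unadjusted limma p of 0.0156. Its other 2 probe sets went the other way. The nectin gene Nectin3 had 0.056 ± 0.16.

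Of 18 tested genes that control beta-catenin or respond to it, 12 were higher, with a median of 0.045. Csnk1a1, whose kinase marks beta-catenin for breakdown, had 0.028 ± 0.11, and Wnt4, an ovarian Wnt ligand gene, 0.062 ± 0.18. Connexin partners had 6 of 9 higher and a median of 0.023. Nedd4, a ubiquitin ligase gene, had 0.042 ± 0.097, and Tjp1, whose ZO-1 protein binds connexin tails, -0.035 ± 0.14. None of these genes had an unadjusted limma p under 0.05, and the medians of the 4 lists with several tested genes lay between -0.16 and 0.12 with single arrays left out.

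**Figure D5:**
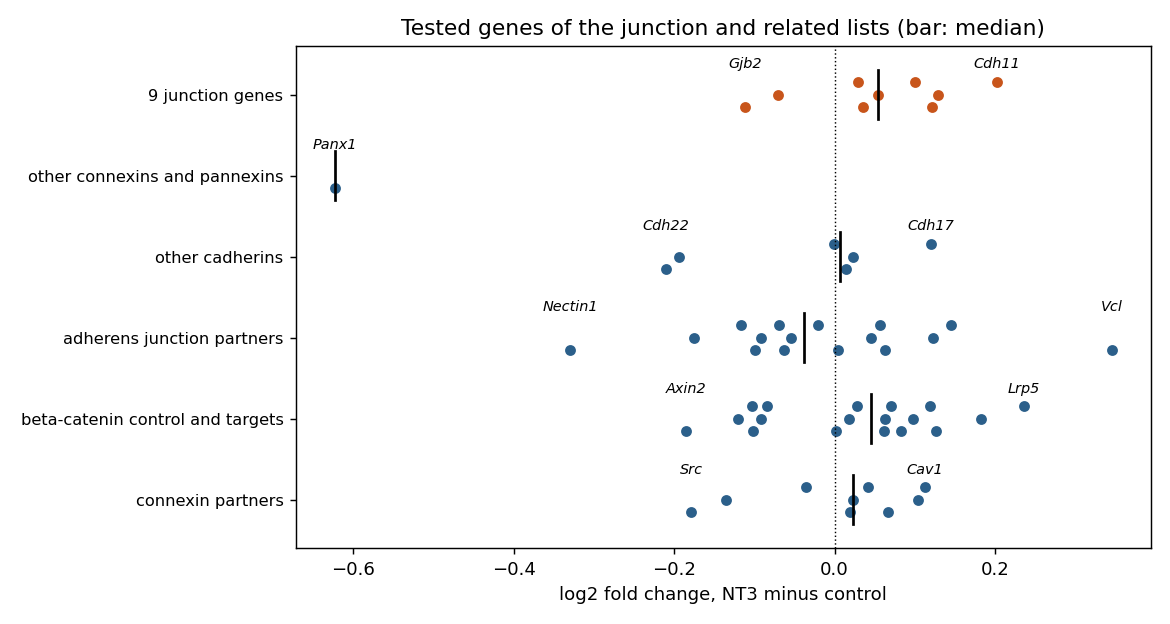
Log2 fold change (NT3 minus control) of the 9 junction genes (orange) and of the tested genes of 5 related lists (blue), 1 probe set a gene, with the median as a bar and the end genes named. Panx1 (-0.62) stands alone as the only tested gene of its list, and the other medians lie between -0.038 and 0.055.

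The genes whose signal ran most like 4 of the members were found among the 14245 or 14246 other tested probe sets with 1 symbol, as a description over 6 arrays that share scale and samples. For Gja1 they were Stxbp2, Igfbp2 and Zbtb4, with Pearson r of 0.995 to 0.998. Igfbp2, which encodes an insulin-like growth factor binding protein, had 1807, 1962 and 1356 in NT3 replicates 1 to 3, against 1323, 2139 and 1562 in control replicates 1 to 3. For Gja4 they were Trpv4, Bpgm and Mdp1, with r of 0.98 each. For Cdh2 they were Srp72, Arhgef18 and Nmt1, and for Cdh11 Chpt1, Plet1 and Zbtb20, all with r of 0.99. These are the 3 highest r picked from 14245 or 14246 probe sets over only 6 arrays, so their height is not read as a result. An r above 0.9 was reached by 109 to 327 probe sets with each gene. Without control replicate 2 these 12 had r from 0.966 to 0.996. Among the 9 genes themselves, Gja1 and Cdh11 had an r of -0.014 over 6 arrays and 0.96 over the 5 other than control replicate 2, on which Gja1 was highest and Cdh11 lowest. Gja1 and Gja4 had -0.60 over 6 arrays and -0.54 over those 5.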

How the data were processed

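Per the labels' protocols, biotin-labelled cRNA of whole ovaries was hybridised to 1-colour Affymetrix arrays. The authors deposited 1 linear intensity per probe set and array, made with MAS5 per the submitters' processing notes (version not given in the sources used here), and no detection calls were used here. Of 31099 probe sets, 57 controls were removed. Intensities were taken to log2 without further scaling, with a floor of 0.1, which 5 probe sets with a signal of 0 needed. Probe sets under the 40th percentile of mean log2 signal were not tested. NT3 was compared with control by limma 3.58.1 in R 4.3.3 (lmFit, eBayes with trend, 2-sided, Benjamini-Hochberg over 18625 probe sets, threshold 0.05), which was tested on simulated data. Of the probe sets, 20826 had 1 symbol, 436 several and 9780 none; of the first, 20758 matched RefSeq's GRCr8 gene table and 0 changed symbol. Scaled signals give no absolute transcript number, and small ones move far on a log scale.

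All members, related lists and marker lists were chosen with earlier results of these data known. Named genes were all members, the 2 genes with the highest mean signal of each related list, every gene of those lists with an unadjusted p under 0.05, and the 3 genes most like Gja1, Gja4, Cdh2 and Cdh11. Genes the annotation did not name were not analysed here. Deviations of same-numbered arrays from their group means correlated at 0.230, 0.247 and 0.222, against -0.25 to 0.029 for unequal numbers. Same-numbered arrays were thus more alike, but no label states a pairing. With 3 arrays per group these values cannot settle whether the samples were paired. The fit reported has no block, as designed, and every p and interval comes from it unless another fit is named; a block for the number was an alternative. The number of arrays limits the precision of every value.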

Additional observations from a re-analysis of the deposited data

How the results depend on the processing

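Of the probe sets of the 9 genes that were tested, 0 had an adjusted limma p under 0.05 in any of the 13 alternatives, as for all probe sets. Those tested numbered 19 without the signal filter, 9 with the 60th percentile as filter and 13 in the others. A replicate block gave 0 adjusted calls over all tested probe sets and 401 at an unadjusted p under 0.05, against 240 in the fit as reported, and it changed no call of a member. That count was 377 without the intensity trend, 752 of 31042 without the signal filter, 123 with the 60th percentile as filter, and 176 to 656 with single arrays left out, the leave-outs of control replicates 2 and 3 giving 656 and 420. The median over the 19 probe sets was 0.019, and -0.031 to 0.026 with single arrays left out. Of the 13 tested probe sets, 10 changed sign under at least 1 alternative. Quantile normalization turned Ctnna1 to -0.018, and centring each array on its median turned Ctnnb1 1373470_at to 0.0074 and Cdh1 to 0.0089; the cause was not tested. With single arrays left out, the ranges that crossed 0 were, for the connexin genes, -0.049 to 0.19 and -0.30 to 0.25 for Gja1 (1372002_at and 1369640_at), -0.047 to 0.36 for Gja4, -0.049 to 0.25 for Gja5, -0.34 to 0.073 for Gjb2 and -0.060 to 0.081 for Gjc1. They were -0.31 to 0.14 for Cdh2 1368642_at, -0.052 to 0.061 and -0.38 to 0.071 for Ctnnb1 (1373470_at and 1369733_at) and -0.0058 to 0.074 for Ctnna1. Among related genes they were -0.13 to 0.12 for Cdh1, -0.062 to 0.087 for Csnk1a1, -0.055 to 0.24 for Nectin3, -0.0035 to 0.12 for Nedd4, -0.13 to 0.095 for Tjp1 and -0.11 to 0.24 for Wnt4. With 3 arrays per group the 95% intervals of the first probe sets together reached from 0.610-fold to 1.51-fold.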

Other observations

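The 3 genes with more than 1 tested probe set, Gja1, Cdh2 and Ctnnb1, shared a pattern on control replicate 2, the array with the 3′ to 5′ ratio of 6.83 for beta-actin. Their weakest tested probe sets all had their lowest signal there, with log2 deviations from the mean of 6 arrays of -0.66 for Gja1 1369640_at, -0.33 for Cdh2 1387259_at and -0.55 for Ctnnb1 1369733_at. Their brightest probe sets deviated upward on the same array, by 0.24 for Gja1, 0.45 for Cdh2 and 0.065 for Ctnnb1. For Ctnnb1 this was small, and its highest array was NT3 replicate 3, at 0.0865. How many other genes with several tested probe sets had such a pattern was not counted, and the part of RNA quality in it was not tested. The position of each probe set in its transcript was not analysed here.

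In some of the 9 genes, arrays of the same replicate number shared extremes. The highest array had the same number in both groups for 4 genes and the lowest for 4, with 2 genes counted in both, and 3 genes shared neither. Over all 18625 tested probe sets the highest array had the same number in 44.2%, the lowest in 44.3%, and neither in 36.4%, so the 9 genes were near the background. Gja1 was highest in replicate 2 of both groups, with deviations of 0.17 in NT3 and 0.24 in control. Gja4 was lowest in the same arrays, at -0.47 in NT3 and -0.20 in control, and Gjb2 was lowest in replicate 1 of both groups, at -0.42 in NT3 and -0.39 in control. Cdh2 and Cdh11 went opposite ways in the arrays numbered 2, at -0.23 in NT3 and 0.45 in control for Cdh2 and at 0.22 in NT3 and -0.32 in control for Cdh11. Krt19, a keratin gene of the surface epithelium, had 7191 in NT3 replicate 2 and 7363 in control replicate 2, and 4409 to 5444 on the other 4 arrays. With the replicate block, Gja4 had an unadjusted limma p of 0.479, against 0.637 without it.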
